A study of Drosophila melanogaster with 12 samples.

Results

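Ataxin-2 (Atx2), the fly TDP-43 homologue TBPH and 8 genes whose products are known to work with them were followed through the brain transcriptomes of male Drosophila melanogaster. The 10 genes were chosen by name, with earlier results of these data known: Atx2, TBPH, tyf, Lsm12, pAbp, me31B, tral, Not1, Fmr1 and caz. All 10 were found among the 17562 genes of the count table, Lsm12 under the symbol Lsm12a, and all 10 were among the 10738 genes with enough counts to be tested. Each fly carried DaGS, a driver that combines the widely active daughterless promoter with GeneSwitch, a transcription factor that works only when the drug RU486 is fed. It also carried a hairpin RNA against either Atx2 or mCherry, a red fluorescent protein that flies lack. The 4 groups thus share the driver, the drug and the presence of a hairpin. The groups, with 3 libraries each, were control flies with the mCherry hairpin, control flies with the Atx2 hairpin, and flies that express TDP-43(52s) with either hairpin. Crosses were kept at 25 °C, males were collected 1 to 2 days after they emerged, and RU486 was fed for 6 days before dissection. The labels call the replicates biological but do not say how many brains or crosses each library holds, and they give neither the species nor the sequence of the TDP-43 transgene.

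Atx2 is an RNA-binding scaffold protein. With Lsm12 and tyf it is known to build a complex that binds poly(A)-binding protein and promotes translation of the clock gene per in pacemaker neurons, and with me31B and Not1 it is known to act in the silencing of messages. Human ataxin-2 binds TDP-43 in an RNA-dependent way, its longer polyglutamine repeats are a risk factor for amyotrophic lateral sclerosis, and lowering Atx2 is known to ease TDP-43 toxicity in flies. TBPH is the fly relative of TDP-43, a nuclear RNA-binding protein that forms aggregates in that disease, and human TDP-43 is known to hold down its own message. The gene caz encodes another nuclear RNA-binding protein of the fly.

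Library sizes ran from 29184618 to 45104293 counts. Levels are given as CPM, read counts scaled to a common library total, with totals adjusted by the TMM method. In what follows, ± after a mean is the SD of 3 libraries and ± after a log2 difference is the standard error of the fit, and a gene is called where its edgeR quasi-likelihood p, adjusted by Benjamini-Hochberg over all genes tested, is under 0.05. The w gene, whose mini-white form marks many fly transgenes, lay between 9.71 and 15.1 CPM in the control libraries and between 1985 and 2405 CPM in the TDP-43 libraries, as the labels have it. Differences with TDP-43 cannot be told apart from those of the chromosome that carries its transgene. Likewise, differences between the hairpins cannot be told apart from those between the fly stocks they came from. The male-specific RNA lncRNA:roX1 lay between 4210 and 5483 CPM in all 12 libraries, but every TDP-43 library lay below every control library. It ran from 4880 to 5131 CPM in control and from 4437 to 4872.5 CPM in TDP-43 flies with the mCherry hairpin. With the Atx2 hairpin it ran from 4891 to 5483 CPM and from 4210 to 4729 CPM. Markers of other tissues differed with TDP-43 and, for some lists, between the hairpins. The summed level of 10 fat body markers was 1482 to 3010 CPM in control and 2825 to 10648 CPM in TDP-43 flies with the mCherry hairpin, and 1388 to 1639 against 2391 to 5195 CPM with the Atx2 hairpin. Within that list the yolk protein gene Yp1 lay between 0.994 and 2.25 CPM in control and between 844 and 3735 CPM in TDP-43 libraries with the mCherry hairpin. Yp2 lay between 0.892 and 1.86 CPM in control and between 422 and 1949 CPM in those TDP-43 libraries. Yp3 lay between 1.21 and 1.59 CPM and between 382 and 1551 CPM. The summed difference was thus largely that of yolk protein genes and does not show a rise of the whole list. With the mCherry hairpin 5 markers of the list were called higher and 2 lower. The 2 lower were the larval serum protein gene Lsp1beta, at a mean of 101 CPM in control and 1.48 CPM in TDP-43 flies, and Obp99b, at 22.4 and 0.798 CPM. The summed level of 10 muscle markers was 181 to 326 against 209.8 to 677 CPM with the mCherry hairpin, with 3 called higher and 1 lower. The summed level of 10 neuron markers was 12369 to 13022 against 11538 to 12537 CPM there, with 0 called higher and 4 lower, and that of 10 glia markers was 4728 to 5324 against 4199 to 4442 CPM, with 2 and 5. With the Atx2 hairpin 4 fat body markers were called higher and 3 lower (Lsp1beta, Obp99b and Lsp2), and the calls were 0 and 1 for muscle, 0 and 3 for neuron and 3 and 4 for glia markers. Without TDP-43 the sum of 10 photoreceptor markers was 1362 to 2149 CPM with the mCherry hairpin and 1562 to 4437 CPM with the Atx2 hairpin, with 0 called beside 6.17% of all genes. With the mCherry hairpin 10 hemocyte markers summed to 1233 to 1636 CPM in control and 901 to 1869 CPM in TDP-43 flies. The gut sums there were 288 to 364 CPM and 86.3 to 1187 CPM. Of the gut list, lambdaTry was at 0 in every library. The part of these differences in the results below was not tested. In RNA from whole brains, fewer cells of a type and less RNA per cell cannot be told apart.

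Atx2 (3R, 15408423 to 15417277, plus strand, dm6), the target of the hairpin, measured 363, 343 and 345 CPM in control libraries under the mCherry hairpin. Under its own hairpin it measured 152, 165 and 162 CPM without TDP-43 and 144, 163 and 155 CPM with it. The 6 knockdown libraries lay below all 6 others, as the labels have it. In control flies the level fell from 350.3 ± 11.4 to 159.8 ± 7.17 CPM, a log2 difference of -1.13 ± 0.06 (edgeR adjusted p = 1.33e-06), so that 45.6% of the level was left (95% interval 41.7% to 49.9%). In TDP-43 flies it fell from 287 ± 18.5 to 154 ± 9.29 CPM, a log2 difference of -0.89 ± 0.06 (edgeR adjusted p = 5.34e-06), with 53.8% left (49.2% to 58.9%).

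The level from which the knockdown started differed between the backgrounds. With the mCherry hairpin, TDP-43 libraries held 267, 304 and 289 CPM of Atx2, all below the 3 control libraries. This is a log2 difference of -0.29 ± 0.06 (edgeR adjusted p = 0.00245). Under knockdown the control and TDP-43 libraries overlapped, and the log2 difference was -0.05 (95% interval -0.18 to 0.08, edgeR adjusted p = 0.593). The difference between the knockdowns in the 2 backgrounds was 0.24 ± 0.08 on the log2 scale and missed the threshold (edgeR adjusted p = 0.211, unadjusted p = 0.0149).

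**Figure D1:**
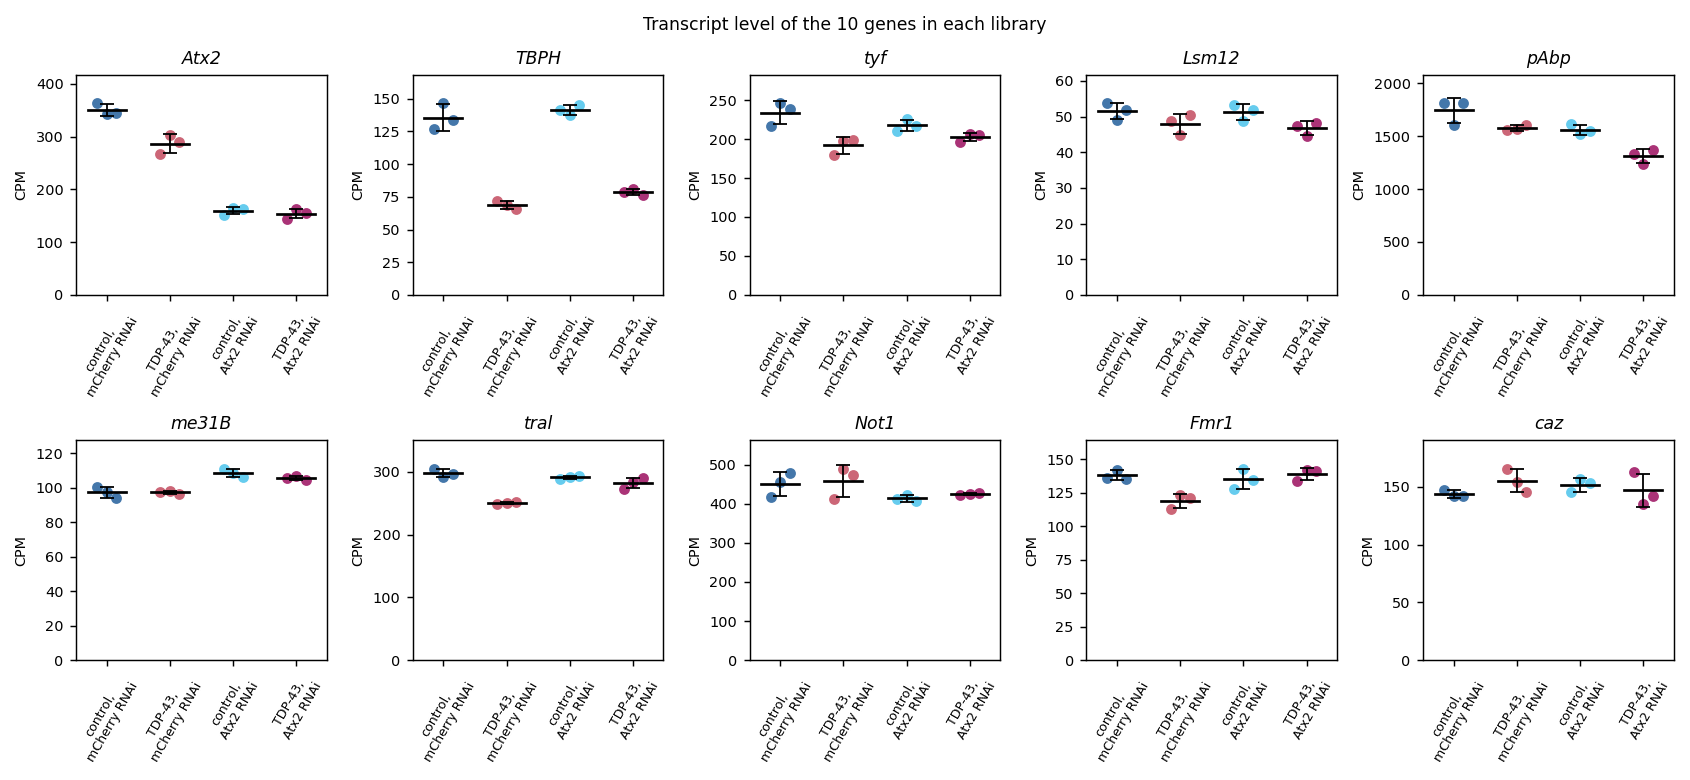
Levels of the 10 genes in every library, in CPM from 0, one panel per gene, with points for libraries and bars for the mean and whiskers for the SD of each group of 3. Atx2 is low in the 6 Atx2 hairpin libraries and TBPH in the 6 TDP-43 libraries, while the groups of Lsm12, Not1 and caz overlap in most comparisons.

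TBPH (2R, 23859067 to 23862593, minus strand) was the other gene that moved by a large amount, and it moved with TDP-43. Under the mCherry hairpin it measured 127, 147 and 134 CPM without TDP-43 and 71.5, 68.7 and 65.5 CPM with it. The Atx2 hairpin values were 142, 138 and 145 CPM without TDP-43 and 78.8, 81.1 and 76.7 CPM with it. All 6 TDP-43 libraries lay below all 6 control libraries. The fall left 50.6% of the level with the mCherry hairpin (95% interval 46.5% to 55.0%, log2 difference -0.98 ± 0.06, edgeR adjusted p = 1.49e-07). It left 55.7% with the Atx2 hairpin (51.3% to 60.6%, log2 difference -0.84 ± 0.06, edgeR adjusted p = 7.01e-07). Within TDP-43 flies, the Atx2 hairpin libraries all lay above the mCherry libraries, and TBPH rose by 0.20 ± 0.05 on the log2 scale (edgeR adjusted p = 0.0317). That call was lost when control mCherry replicate 3, any control Atx2 replicate, TDP-43 mCherry replicate 2 or 3, or any TDP-43 Atx2 replicate was left out, where the edgeR adjusted p ran from 0.0539 to 0.154. Without TDP-43 the hairpin groups overlapped (log2 difference 0.06, 95% interval -0.06 to 0.18, edgeR adjusted p = 0.605), and the difference between the backgrounds, 0.14 ± 0.08, missed the threshold (edgeR adjusted p = 0.432).

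Of the partners of Atx2 in the translation complex, tyf and pAbp were called in at least 1 comparison, and Lsm12 was called only with a replicate block. The gene tyf (X, 4117020 to 4130016, plus strand), whose product joins Atx2 on the per message, measured 217, 246 and 238 CPM without TDP-43 and 179.7, 198 and 199 CPM with it under the mCherry hairpin. These groups did not overlap, and tyf fell by 0.28 on the log2 scale (± 0.06, edgeR adjusted p = 0.00190). Under the Atx2 hairpin the values were 210.1, 225 and 217 against 197, 206 and 206 CPM, all TDP-43 libraries again the lower, but the log2 difference of -0.10 ± 0.06 missed the threshold (edgeR adjusted p = 0.229). The hairpin groups overlapped in both backgrounds, with log2 differences of -0.10 and 0.08 and edgeR adjusted p = 0.333 and 0.381. Tip60 lies on the opposite strand and shares 376 bases, 3.28%, of the merged exons of tyf.

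Lsm12 (Lsm12a, X, 12018640 to 12020719, plus strand), the bridge between Atx2 and tyf, was called in none of the comparisons by edgeR without a replicate block. Its control libraries under the mCherry hairpin held 53.7, 49.0 and 51.9 CPM and its TDP-43 libraries 48.8, 44.9 and 50.3 CPM, which overlap. Under the Atx2 hairpin its TDP-43 libraries, at 47.3, 44.6 and 48.2 CPM, all lay below its control libraries, at 53.2, 48.8 and 51.8 CPM (log2 difference -0.13 ± 0.06, edgeR adjusted p = 0.136). With the replicate number as a block in the fit, that difference was called, at -0.13 (edgeR adjusted p = 0.0424), and same-numbered libraries of these 2 groups deviated together.

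The gene pAbp (2R, 18140078 to 18147191, plus strand), whose product coats poly(A) tails and is bound by Atx2, had the highest level of the 10 per kb of exon, and the group with both manipulations was its lowest. Under the Atx2 hairpin it measured 1614, 1519 and 1547 CPM without TDP-43 and 1326, 1241 and 1373 CPM with it. Under the mCherry hairpin the TDP-43 libraries held 1557, 1564 and 1605 CPM, so that the libraries with both manipulations lay below all others. Under knockdown pAbp fell with TDP-43 by 0.25 on the log2 scale (± 0.05, edgeR adjusted p = 0.00643), and in TDP-43 flies it fell with the Atx2 hairpin by 0.26 (± 0.05, edgeR adjusted p = 0.00841). These calls held in all alternatives tried.

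For each manipulation alone, the call of pAbp depended on the settings. The control libraries under the mCherry hairpin held 1809.6, 1606 and 1809.8 CPM, the second library close to the other groups. The log2 difference was -0.15 ± 0.05 with TDP-43 (edgeR adjusted p = 0.0543) and -0.16 ± 0.05 with the Atx2 hairpin (edgeR adjusted p = 0.121). Without control mCherry replicate 2 both were called, at -0.21 (edgeR adjusted p = 0.0101) and -0.22 (edgeR adjusted p = 0.0422). The TDP-43 difference was also called without control Atx2 replicate 1 or 2 or any one of the TDP-43 Atx2 replicates, with edgeR adjusted p from 0.0260 to 0.0414. It was called as well with the DESeq2 size factors in edgeR (edgeR adjusted p = 0.0362), without the filter on low counts (edgeR adjusted p = 0.0492) and by DESeq2 (adjusted p = 0.0110), in all by 10 of the 17 alternatives. DESeq2 also called the hairpin difference (adjusted p = 0.0173). The interaction, the difference between the TDP-43 effects under the 2 hairpins, was -0.10 ± 0.08 (edgeR adjusted p = 0.578).

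Among the genes for silencing and decay, tral and me31B encode partners in P bodies and Not1 encodes the scaffold of the CCR4-NOT deadenylase. The gene tral (3L, 12515059 to 12520954, plus strand) measured 305, 292 and 296 CPM without TDP-43 and 249, 251 and 251 CPM with it under the mCherry hairpin. Its values under the Atx2 hairpin were 288, 292 and 293 CPM without TDP-43 and 273, 284 and 290.0 CPM with it. The TDP-43 mCherry libraries were thus the lowest, while the other 3 groups lay close together. With the mCherry hairpin tral fell by 0.25 on the log2 scale with TDP-43 (± 0.04, edgeR adjusted p = 2.35e-04), and in TDP-43 flies it rose by 0.17 ± 0.04 with the Atx2 hairpin (edgeR adjusted p = 0.00817). The rise was not called without TDP-43 Atx2 replicate 2 (edgeR adjusted p = 0.0516) or with only the compared groups in the fit (edgeR adjusted p = 0.0525). These comparisons share the TDP-43 mCherry libraries with opposite sign, so that a low value there lowers one and raises the other. The interaction, which uses all 4 groups, was 0.20 ± 0.05 on the log2 scale, with an edgeR adjusted p of 0.102, and it was called by DESeq2 (adjusted p = 0.00120).

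For me31B (2L, 10239341 to 10242172, plus strand), an RNA helicase, the ordering followed the hairpin and not TDP-43. Under the mCherry hairpin it measured 101, 97.4 and 94.4 CPM without TDP-43 and 97.5, 98.1 and 96.6 CPM with it. The Atx2 hairpin libraries held 111, 108 and 106 CPM without TDP-43 and 106, 107 and 105 CPM with it, all 6 above the others. It rose with the Atx2 hairpin by 0.16 ± 0.04 on the log2 scale without TDP-43 (edgeR adjusted p = 0.0266) and by 0.12 ± 0.04 with it (edgeR adjusted p = 0.0490). Both calls depended on the libraries and on the settings. The first was lost without control mCherry replicate 2 or 3 or any one of the 6 Atx2 hairpin libraries (edgeR adjusted p up to 0.156), and the second without any library other than control mCherry replicate 1 (edgeR adjusted p up to 0.191). Without the filter on low counts both were lost (edgeR adjusted p = 0.0846 and 0.110), as with only the compared groups in the fit (0.0799 and 0.112). The second was also lost with the DESeq2 size factors in edgeR (edgeR adjusted p = 0.0519). The log2 difference with TDP-43 lay between -0.08 and 0.08 (95% interval) with the mCherry hairpin and between -0.12 and 0.04 with the Atx2 hairpin.

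Not1 (2R, 9566146 to 9579007, minus strand) was called in none of the comparisons. Under the mCherry hairpin its control libraries held 417, 455 and 477 CPM and its TDP-43 libraries 411, 489.8 and 474 CPM. Those under the Atx2 hairpin held 411, 423 and 408 CPM without TDP-43 and 421, 424 and 429 CPM with it. Groups overlapped throughout, and the mCherry groups were spread more widely than the Atx2 groups. Without TDP-43 mCherry replicate 1 Not1 was called lower with the Atx2 hairpin in TDP-43 flies, at -0.18 (edgeR adjusted p = 0.0431), against -0.11 ± 0.07 with all libraries (edgeR adjusted p = 0.298).

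Fmr1 (3R, 10101420 to 10110121, minus strand), the fly fragile X gene, whose product represses translation and is found with Atx2, was ordered like tral. Its mCherry hairpin libraries held 136, 142 and 136 CPM without TDP-43 and 113, 123 and 121 CPM with it. Its Atx2 hairpin libraries held 128, 143 and 135 CPM without TDP-43 and 134, 142 and 141 CPM with it. As with tral, the TDP-43 mCherry libraries lay below all others, and the other groups overlapped. With the mCherry hairpin Fmr1 fell by 0.21 on the log2 scale with TDP-43 (± 0.05, edgeR adjusted p = 0.00598), and in TDP-43 flies it rose by 0.22 ± 0.05 with the Atx2 hairpin (edgeR adjusted p = 0.0128), a call lost without TDP-43 Atx2 replicate 2 (0.0757) or 3 (0.0585). As for tral, these comparisons share the TDP-43 mCherry libraries with opposite sign. The interaction was 0.25 ± 0.07, with an edgeR adjusted p of 0.141, and DESeq2 called it (adjusted p = 0.0246), as did edgeR with the replicate block (edgeR adjusted p = 0.0448).

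The gene caz (X, 16288810 to 16293520, plus strand), which encodes a nuclear RNA-binding protein, was called in none of the comparisons. In the mCherry hairpin groups it measured 147, 142 and 142 CPM without TDP-43 and 166, 154 and 146 CPM with it. In the Atx2 hairpin groups it measured 145, 157 and 153 CPM and 163, 135 and 142 CPM. Its groups overlapped in all 4 pairwise comparisons, and the 95% intervals of the log2 differences with TDP-43 ran from -0.04 to 0.26 and from -0.20 to 0.10.

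**Figure D2:**
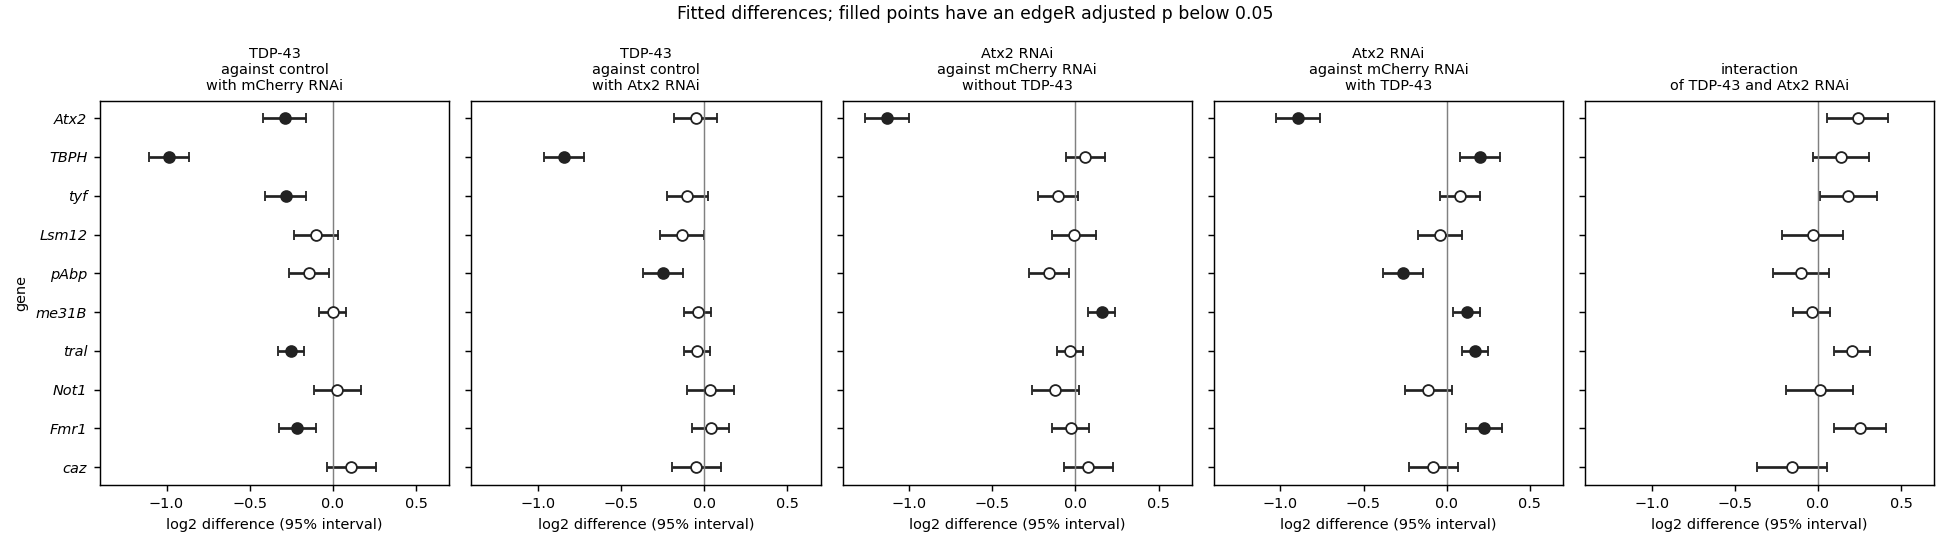
Log2 differences of the 10 genes in the 4 pairwise comparisons and the interaction, with 95% intervals; filled points are called at an edgeR adjusted p under 0.05. Atx2 with its hairpin and TBPH with TDP-43 lie far from 0, near -1, while the other differences are within 0.3 of 0 and no interaction is called in this fit, which holds no replicate block.

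Counted over the set, 5 of the 10 genes were called with TDP-43 under the mCherry hairpin, all 5 lower (Atx2, TBPH, tyf, tral and Fmr1). Of all genes tested, 37.6% were called in that comparison and 18.3% were called lower. In 6 of the 10 all TDP-43 libraries lay below all control libraries, where 46.4% of all genes had groups that did not overlap and 21.8% had them lower. With the Atx2 hairpin, 2 of 10 were called with TDP-43, both lower (TBPH and pAbp), beside 22.5% of all genes in either direction, a share near that of the set, and 10.4% lower; with the replicate block the count was 3, Lsm12 added. Without overlap were 4 of 10, all lower, beside 43.8% of all genes, 21.9% higher and 22% lower. The Atx2 hairpin moved 2 of 10 without TDP-43, Atx2 itself and me31B, where 6.17% of all genes were called, 3.24% higher and 2.93% lower. These were also the 2 whose groups did not overlap there, beside 25.7% of all genes, and the count of calls ran from 1 to 2 with 1 library left out. In TDP-43 flies it moved 6 of 10, 4 higher (TBPH, me31B, tral and Fmr1) and 2 lower (Atx2 and pAbp), where 14% of all genes were called, 7.68% higher and 6.36% lower. The same 6 had groups without overlap, beside 32.7% of all genes, 17.3% higher and 15.4% lower. That count of 6 fell to 2, Atx2 and pAbp, without TDP-43 Atx2 replicate 2, to 3 without replicate 3, and to 4 or 5 without most of the other libraries. Here and in the lists below, this comparison shares the TDP-43 mCherry libraries, with opposite sign, with that of TDP-43 under the mCherry hairpin. None of the 10 had a called interaction in edgeR without a replicate block, where 0.428% of all genes had one. An unadjusted p under 0.05 was found there for 4 of them (Atx2, tyf, tral and Fmr1), beside 1636 of the 10738 genes tested. DESeq2 called the interaction of 2 (tral and Fmr1), among 507 genes in all. With the replicate block edgeR called that of Fmr1 (edgeR adjusted p = 0.0448), among 138 genes in all. The set was chosen with earlier results of these data known, and the hairpin comparisons count Atx2, the hairpin's own target. The counts are thus a description only.

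Apart from the hairpin's target and TBPH, the sizes were small. The median log2 difference of the 10 was -0.18 with TDP-43 under the mCherry hairpin, against 0.03 for all genes tested, and -0.05 against -0.01 under the Atx2 hairpin. For the Atx2 hairpin it was -0.03 against 0.00 without TDP-43 and 0.02 against -0.02 with it. The group means spanned 1.18 on the log2 scale for Atx2, 1.04 for TBPH and 0.11 to 0.41 for the other 8, with a median of 0.34 over all genes. The SD within groups ran from 0.03 (tral) to 0.09 (caz) on the log2 scale, under the 0.12 that was the median of all genes tested.

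Per kb of merged exon, which allows levels of different genes to be set side by side, pAbp stood highest in control flies with the mCherry hairpin at 405 ± 27.3 CPM per kb. It was followed by caz at 86.2 ± 1.92, tral at 71.4 ± 1.56, Atx2 at 60.5 ± 1.96 and me31B at 52.8 ± 1.69 CPM per kb. TBPH (42.1 ± 3.12), Not1 (41.2 ± 2.81) and Lsm12 (41.2 ± 1.90) came next and did not differ beyond their spread. Fmr1 at 28.1 ± 0.765 and tyf at 20.4 ± 1.31 CPM per kb were lowest. In TDP-43 flies under knockdown, Atx2 was at 26.7 ± 1.61 and TBPH at 24.5 ± 0.683 CPM per kb, which placed both below Lsm12 at 37.3 ± 1.53.

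The genes whose pattern over the 12 libraries was most like that of Atx2 or TBPH were found as those with the smallest root mean square difference in log2(CPM + 0.5), each gene centred on its own mean, among 5148 genes at 20 CPM or more. For Atx2 the nearest were CG8245 (2R, a difference of 0.106), CG31808 (2L, 0.144), Cyp12a4 (3R, 0.183), CG17272 (3R, 0.192) and lncRNA:CR44922 (3R, 0.215). CG8245 averaged 122 CPM without TDP-43 and 102 CPM with it under the mCherry hairpin, and 59.4 and 51.1 CPM under the Atx2 hairpin. Like Atx2, all 5 were lower with the Atx2 hairpin in both backgrounds. For TBPH the nearest were Ady43A (0.0871), CG5273 (X, 0.0954), Csas (3L, 0.101), Irk2 (3R, 0.104) and unc79 (3R, 0.110), all lower in TDP-43 flies. Within the set of 10 the closest pair was tral and Fmr1, at 0.058, followed by tyf and tral at 0.078 and tyf and Fmr1 at 0.085. The libraries are shared by all of these genes, and likeness of pattern is given as a description only.

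**Figure D3:**
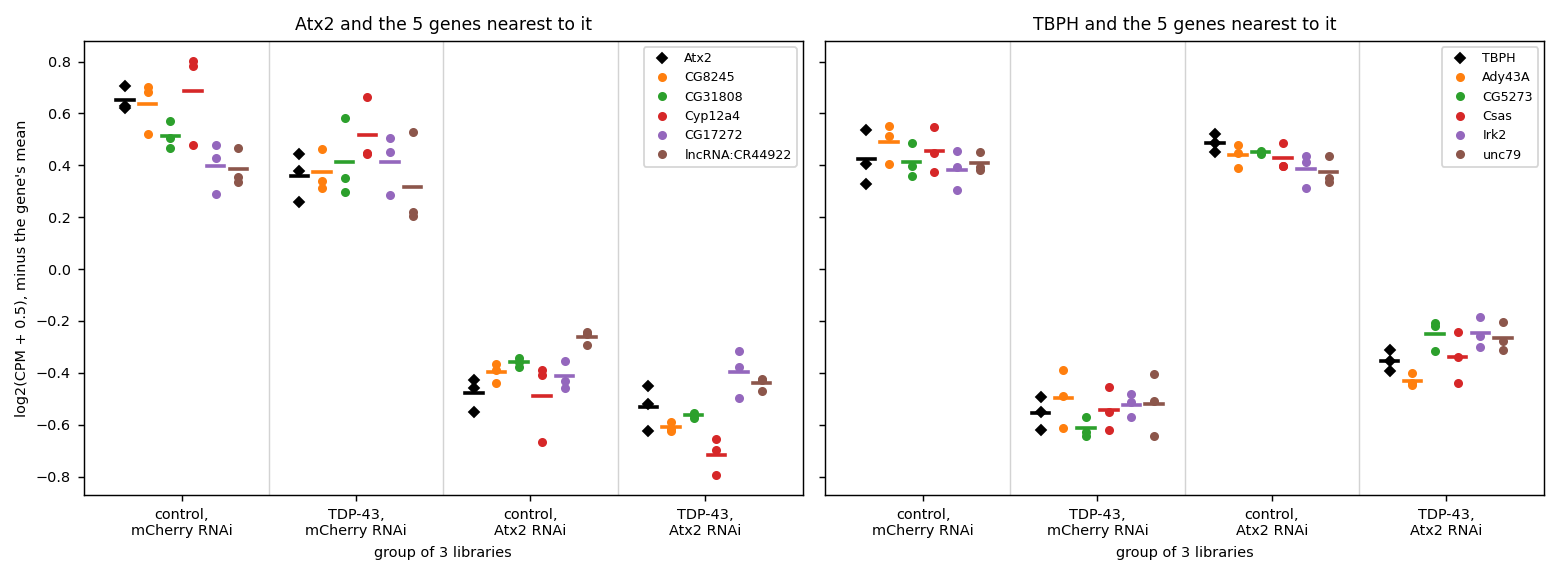
Log2(CPM + 0.5) minus the gene's own mean over the 12 libraries, for Atx2 (left) and TBPH (right) and the 5 genes nearest to each, with points for libraries and bars for group means. The left-hand genes drop with the Atx2 hairpin and the right-hand genes with TDP-43.

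Genes that work in the same steps were described from lists of the pathway, which include the members that belong to them. The lists, too, were chosen with earlier results of these data known. Of 9 CCR4-NOT genes, 0 rose and 3 fell with TDP-43 under the mCherry hairpin, and again 0 and 3 under the Atx2 hairpin. Of all genes tested 18.3% and 10.4% were called lower in these comparisons. The 3 were the same under both, namely Not3, a regulatory subunit, and the deadenylases twin and Pop2. Not3 fell from 189.7 ± 7.18 to 161 ± 1.87 CPM with the mCherry hairpin (-0.24 ± 0.04 on the log2 scale, edgeR adjusted p = 4.19e-04), and twin from 126 ± 2.45 to 101 ± 6.50 CPM (-0.31 ± 0.05, edgeR adjusted p = 6.14e-04). Atx2 knockdown without TDP-43 moved 0 of the 9 in edgeR, beside 6.17% of all genes, and 1 in DESeq2. In edgeR 2 of the 9 had an unadjusted p under 0.05 there, as had 2106 of the 10738 genes tested. In TDP-43 flies 2 rose with the Atx2 hairpin, Not3 (0.20 ± 0.04, edgeR adjusted p = 0.00471) and Rga (0.15 ± 0.04, edgeR adjusted p = 0.0381), where 7.68% of all genes were called higher. Not3 under the Atx2 hairpin (-0.12 ± 0.04, edgeR adjusted p = 0.0368) was not called without TDP-43 mCherry replicate 2 or any one of the 6 Atx2 hairpin libraries. Rga was not called without any one of the 9 libraries other than the control mCherry ones. The median of the list was -0.07 on the log2 scale with TDP-43 under the mCherry hairpin, against 0.03 for all genes, and 0.02 against -0.01 under the Atx2 hairpin.

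Of 13 decapping and P-body genes tested, 0 rose and 3 fell with TDP-43 under either hairpin, where 18.3% (mCherry) and 10.4% (Atx2) of all genes were called lower. The median log2 differences of the list were -0.08 against 0.03 for all genes and -0.04 against -0.01. The decapping scaffold gene Ge-1 fell under both, from 75.7 ± 2.01 to 61.5 ± 1.46 CPM with the mCherry hairpin (-0.30 ± 0.05, edgeR adjusted p = 4.05e-04) and from 78.3 ± 2.66 to 65.6 ± 2.78 CPM with the Atx2 hairpin (-0.26 ± 0.05, edgeR adjusted p = 0.00197). For the Atx2 hairpin, me31B alone of the 13 was called without TDP-43, and 3 rose with it, beside 3.24% and 7.68% of all genes called higher. Leaving out 1 library changed these counts by more than 1.5 times for the falls under the mCherry hairpin (5 without TDP-43 mCherry replicate 2), for the falls under the Atx2 hairpin (1 without control Atx2 replicate 1 or TDP-43 Atx2 replicate 2 or 3) and for the rises in TDP-43 flies (0 without TDP-43 Atx2 replicate 2).

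The cap-binding and poly(A)-binding list, with 16 genes tested, had 2 higher and 1 lower with TDP-43 under the mCherry hairpin, and 2 higher and 3 lower under the Atx2 hairpin, the latter 5 with the replicate block. The background was 19.2% of all genes higher and 18.3% lower under the mCherry hairpin, and 12.1% and 10.4% under the Atx2 hairpin. The median log2 differences were -0.01 against 0.03 for all genes and -0.04 against -0.01. Pabp2, the nuclear poly(A)-binding protein gene, rose with TDP-43 under both, from 48.9 ± 3.25 to 73.0 ± 1.74 CPM (0.58 ± 0.07, edgeR adjusted p = 1.07e-04) and from 52.3 ± 4.50 to 73.9 CPM (68.2 to 77.6 CPM over 3 libraries), a rise of 0.50 ± 0.07 (edgeR adjusted p = 4.56e-04). The cytoplasmic pAbp, by contrast, had negative log2 differences in both. Thor rose with TDP-43 under the mCherry hairpin, from 14.1 ± 7.13 to 49.8 ± 20.6 CPM (log2 difference 1.82, edgeR adjusted p = 0.0123), a call lost in 1 of 17 alternatives. Under the Atx2 hairpin it averaged 12.5 CPM without TDP-43 and 14.6 CPM with it. In TDP-43 flies Thor was lower with the Atx2 hairpin (-1.77, edgeR adjusted p = 0.0327), a call lost in 9 of 17 alternatives. The helicase gene eIF4A was called lower only under the Atx2 hairpin, from 1419 ± 97.2 to 1106 ± 18.3 CPM (-0.36 ± 0.06, edgeR adjusted p = 7.05e-04), but the difference between the hairpins missed the threshold (-0.21 ± 0.08, edgeR adjusted p = 0.247). Under the mCherry hairpin eIF4A went from 1225 ± 53.1 to 1101 ± 56.2 CPM with TDP-43. The Atx2 hairpin raised 1 of the 16 and lowered 0 without TDP-43, beside 3.24% and 2.93% of all genes. The 1 was eIF4A (0.21, edgeR adjusted p = 0.0473), a call lost in 11 of 17 alternatives. It rests on the same control Atx2 libraries as the fall of eIF4A above. In TDP-43 flies the Atx2 hairpin raised 1 (2 with the replicate block) and lowered 2, beside 7.68% and 6.36% of all genes. Counts this small moved with single libraries, and the fits without 1 library gave 0 to 3 falls with TDP-43 under the mCherry hairpin and 0 to 2 rises with the Atx2 hairpin in TDP-43 flies.

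The stress granule and translational regulator list, with 19 genes tested including Atx2 and Fmr1, held the most calls of these lists. With TDP-43 under the mCherry hairpin 0 rose and 11 fell, with a median log2 difference of -0.17 against 0.03 for all genes, and under the Atx2 hairpin 1 rose and 3 fell, with a median of -0.01 against -0.01. Of all genes tested, 18.3% were called lower under the mCherry hairpin and 10.4% under the Atx2 hairpin. The translational repressor gene pum fell under both, from 671 ± 7.91 to 545 ± 25.2 CPM (-0.30 ± 0.04, edgeR adjusted p = 3.00e-04) and from 670.4 ± 26.2 to 572 ± 10.4 CPM (-0.23 ± 0.04, edgeR adjusted p = 0.00288). In TDP-43 flies the Atx2 hairpin raised 6 and lowered 1, Atx2 itself, beside 7.68% and 6.36% of all genes and with a median of 0.07 against -0.02. Without TDP-43 it raised 0 and lowered 2, Atx2 and the RNA transport gene stau (-0.23 ± 0.04, edgeR adjusted p = 0.00716), beside 3.24% and 2.93% of all genes. The 6 became 3 without control mCherry replicate 2, control Atx2 replicate 3 or TDP-43 mCherry replicate 1, and 1 and 2 without TDP-43 Atx2 replicates 2 and 3. The 3 that fell under the Atx2 hairpin became 1 without control Atx2 replicate 2 or TDP-43 Atx2 replicate 1. The 11 falls under the mCherry hairpin and the 6 rises in TDP-43 flies share the TDP-43 mCherry libraries with opposite sign. Low values there add to both counts. The interaction, which uses all 4 groups, was called for 1 of the 19, beside 0.428% of all genes.

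Capr, whose human counterpart is a stress granule protein, was the only gene of the 4 lists above with a called interaction. Its mean was 137 ± 3.39 CPM without TDP-43 and 112 ± 2.26 CPM with it under the mCherry hairpin, and 128 ± 2.82 and 127 ± 2.20 CPM under the Atx2 hairpin, the order already seen for tral and Fmr1. The interaction was 0.28 ± 0.05 on the log2 scale (edgeR adjusted p = 0.0478). It held on leaving out control mCherry replicate 3 (edgeR adjusted p = 0.0371) and was lost on leaving out any other library, with edgeR adjusted p from 0.0637 to 0.192.

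Messages described as bound or regulated by TBPH or TDP-43 in flies were given as a list of 10. With TDP-43, 0 rose and 6 fell under the mCherry hairpin and 0 rose and 3 fell under the Atx2 hairpin, beside 18.3% and 10.4% of all genes called lower. The median log2 differences of the list were -0.13 against 0.03 for all genes and -0.08 against -0.01. The Atx2 hairpin raised 1 and lowered 0 without TDP-43, a rise lost in 11 of the 12 fits without a library, and raised 2 and lowered 0 with it, where 3.24% and 7.68% of all genes were called higher. Map205, which encodes a microtubule-associated protein, moved most and followed the order of TBPH, going from 99.8 ± 4.27 to 38.4 ± 2.83 CPM with TDP-43 under the mCherry hairpin and from 117 ± 5.32 to 53.6 ± 1.71 CPM under the Atx2 hairpin. It fell by 1.38 on the log2 scale with TDP-43 under the mCherry hairpin (± 0.06, edgeR adjusted p = 2.50e-08), and in TDP-43 flies it rose by 0.48 ± 0.06 with the Atx2 hairpin (edgeR adjusted p = 5.06e-04). The glutamate transporter gene Eaat2 fell with TDP-43 under both hairpins, by 0.44 (± 0.04, edgeR adjusted p = 9.88e-06) and 0.29 (± 0.04, edgeR adjusted p = 3.33e-04). For futsch, the microtubule-associated protein gene of fly synapses, the TDP-43 difference under the mCherry hairpin was -0.36 ± 0.10 (edgeR adjusted p = 0.0186). That call was lost without control mCherry replicate 2 (edgeR adjusted p = 0.0657) and with only the compared groups in the fit (edgeR adjusted p = 0.0812). The calcium channel gene cac was called in none of the comparisons.

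**Figure D4:**
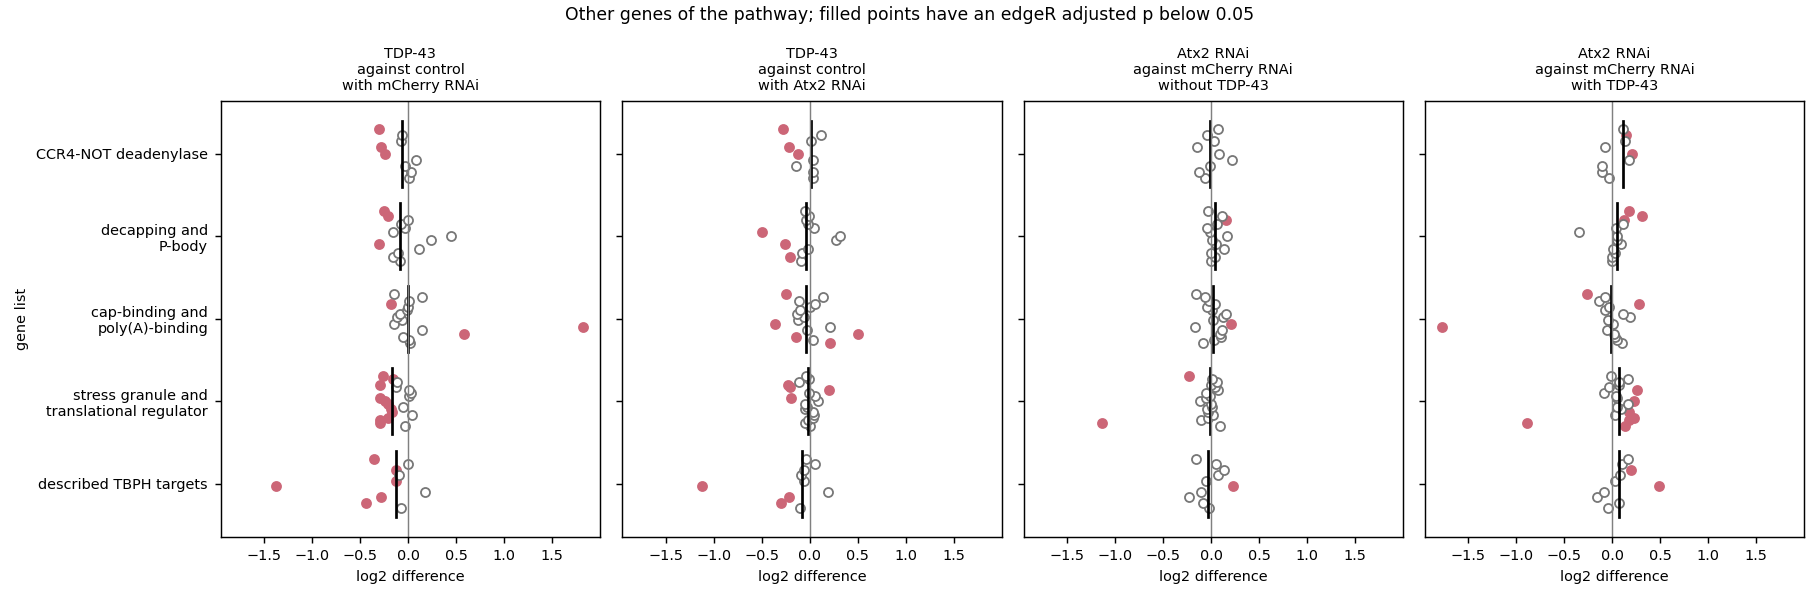
Log2 differences of the genes of 5 lists in the 4 pairwise comparisons, with filled points for an edgeR adjusted p under 0.05 and a black bar for the median of each list. With TDP-43 under the mCherry hairpin 11 filled points of the stress granule and translational regulator list lie left of 0, and in TDP-43 flies with the Atx2 hairpin 6 lie right of it. These comparisons share the TDP-43 mCherry libraries with opposite sign.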

How the data were processed

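Brain RNA from 12 libraries was compared. The authors deposited raw counts per gene for the whole series in one table. Per the submitters' processing notes the tools were Trim Galore, STAR 2.7.3a, SAMtools and DESeq2, with the dm6 genome, and per the labels' protocols the kit was stranded and poly(A)-selected, with paired reads of 150 bases. The program that counted the reads, its annotation and its strand setting are not given in the sources used here, so counts of genes with an antisense neighbour, such as tyf and Tip60, may be mixed. All 12 columns matched a labelled sample.

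Counts were tested with edgeR 4.0.16 in R 4.3.3: genes were kept by filterByExpr, libraries scaled by TMM, 4 group means fitted to 12 libraries with 8 residual degrees of freedom, and robust quasi-likelihood tests run on the 10738 genes kept. On simulated data the test missed the smallest of the changes put in and found most of the largest. With 3 libraries per group, p-values measure the spread between these libraries, which may be technical in part. The labels do not say what a replicate number marks. The deviations of same-numbered libraries from their group means correlated over 0.1 in all 3 pairs for TDP-43 under the Atx2 hairpin (0.14 to 0.40). The same held for the hairpins in TDP-43 flies (0.19 to 0.62), but not in the other comparisons. The main fits held no replicate block in any comparison, so a possible pairing was not used in their p-values. Standard errors are the log2 difference divided by the root of F. Exon lengths and positions came from the Ensembl annotation, which uses the dm6 coordinates. Lsm12 was found as Lsm12a through a RefSeq synonym. The 10 genes and the lists were chosen with earlier results of these data known. The genes named are the 10, at most 4 called genes per list and comparison by smallest adjusted p, and per, tim, futsch and cac; where a list had several, those whose calls held were preferred. Alternatives were DESeq2 1.42.0, its size factors in edgeR, no filter, the compared groups only, a replicate block, and each library left out; those for list genes were added after seeing the data. Counting error is covered by the spread between libraries.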

Additional observations from a re-analysis of the deposited data

How the results depend on the processing

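Of the 15 calls among the 50 differences of the 10 genes, 10 held in all 17 alternatives, namely Atx2, TBPH, tyf, tral and Fmr1 with TDP-43 under the mCherry hairpin, TBPH and pAbp with TDP-43 under the Atx2 hairpin, Atx2 with its hairpin in both backgrounds and pAbp with it in TDP-43 flies. With only the compared groups in the fit, the hairpin called 1 of the 10 genes without TDP-43 and 3 with it, where 911 genes were called in all against 1508, and TBPH there stood at 0.20 (edgeR adjusted p = 0.0583). Without the filter on low counts the hairpin called 1 of the 10 without TDP-43. For the interaction, DESeq2 called 507 genes against 46, among them 2 of the 10 (tral and Fmr1). With 1 library left out the hairpin called 282 to 784 genes and 1 to 2 of the 10 without TDP-43, and 731 to 1664 genes and 2 to 6 of the 10 with it, and the interaction 10 to 68 genes and 0 of the 10. TBPH with the hairpin in TDP-43 flies then stood between 0.17 and 0.23.

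None of the values that changed sign was called. With TDP-43 under the mCherry hairpin me31B stood at 0.0055 with the compared groups only and between -0.039 and 0.019 with 1 library left out, and Not1 between -0.049 and 0.087. Under the Atx2 hairpin caz stood between -0.13 and 0.014 and futsch between -0.073 and 0.037. With the hairpin and no TDP-43, Lsm12 stood between -0.045 and 0.022 and Fmr1 between -0.088 and 0.0038. The interaction stood between -0.061 and 0.013 for Lsm12, -0.059 and 0.0043 for me31B, -0.045 and 0.079 for Not1 and -0.016 and 0.061 for cac. The cause of these changes was not tested, beyond the smaller number of libraries.

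Over all group pairs, 8 of 18 same-number pairs of libraries had a correlation over 0.1, with a range from -0.33 to 0.62, and a library matched its own number best in 16 of 36 cases. With the replicate block 4258, 2540, 712 and 1718 genes were called in the 4 pairwise comparisons, against 4035, 2413, 663 and 1508, and the interaction called 138 genes and 1 of the 10 (Fmr1, edgeR adjusted p = 0.0448). The block also called pAbp with TDP-43 under the mCherry hairpin (-0.14, edgeR adjusted p = 0.0275). In the 2 comparisons where all same-number pairs correlated over 0.1, the block added the call of Lsm12. It changed no other call there of a gene named in the text. The median of all genes moved by at most 0.013 on the log2 scale with the DESeq2 size factors in edgeR, and by at most 0.026 under any alternative.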

Other observations

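The clock gene per, whose message is the known target of the Atx2, tyf and Lsm12 complex, averaged 38.8 ± 4.33 CPM without TDP-43 and 44.5 ± 6.26 CPM with it under the mCherry hairpin, and 35.8 ± 3.51 and 61.4 ± 7.90 CPM under the Atx2 hairpin. Its level rose with TDP-43 under the Atx2 hairpin (0.78 ± 0.13 on the log2 scale, edgeR adjusted p = 0.00116), where all 3 TDP-43 libraries were the higher. In TDP-43 flies it was called higher with the Atx2 hairpin (0.46 ± 0.13, edgeR adjusted p = 0.0333). That call was lost in 9 of the 17 alternatives, with an edgeR adjusted p from 0.0507 to 0.142: without the filter on low counts, with the compared groups only, and without control mCherry replicate 2, control Atx2 replicate 2 or 3, TDP-43 mCherry replicate 1 or 3, or TDP-43 Atx2 replicate 1 or 2. Under the mCherry hairpin the difference was 0.20 ± 0.13 (edgeR adjusted p = 0.239), and the interaction was not called by edgeR (0.58 ± 0.18, edgeR adjusted p = 0.168) but was by DESeq2 (adjusted p = 0.0214). Its partner tim rose with TDP-43 under both hairpins, from 92.7 ± 13.2 to 175 ± 28.7 CPM and from 81.7 ± 3.79 to 223 ± 19.7 CPM, at an edgeR adjusted p of 3.80e-04 and 3.09e-05. The blue-light receptor gene of the clock, cry, fell with TDP-43 under both, from 79.6 ± 8.85 to 53.5 ± 1.18 CPM and from 66.2 ± 1.47 to 35.0 ± 0.916 CPM, by 0.57 ± 0.07 and 0.92 ± 0.07 on the log2 scale (edgeR adjusted p = 7.06e-05 and 2.33e-06). Of the 10 clock genes, TDP-43 raised 3 and lowered 2 under the mCherry hairpin, and raised 5 and lowered 2 under the Atx2 hairpin. Of all genes tested 19.2% were called higher and 18.3% lower under the mCherry hairpin, and 12.1% and 10.4% under the Atx2 hairpin. The median log2 differences of the clock list were 0.07 against 0.03 for all genes and 0.30 against -0.01. The hour at which brains were taken is not given in the labels, and its part in these values was not tested.

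Among 14 fly relatives of genes mutated in amyotrophic lateral sclerosis, TBPH included, the autophagy receptor gene ref(2)P was the only one apart from TBPH to be called with the Atx2 hairpin. Its mean was 249 ± 6.24 CPM without TDP-43 and 251 ± 1.41 CPM with it under the mCherry hairpin, and 204 ± 10.3 and 200.2 ± 5.71 CPM under the Atx2 hairpin. The 6 Atx2 hairpin libraries lay below the 6 others. It fell by 0.29 ± 0.04 without TDP-43 and by 0.32 ± 0.04 with it on the log2 scale (edgeR adjusted p = 0.00212 and 7.09e-04), and these calls held with each library left out. The Atx2 hairpin thus called 0 of the 14 higher and 1 lower without TDP-43, and 1 and 1 in TDP-43 flies. Of all genes tested 6.17% and 14% were called there in either direction, shares near those of the list. With TDP-43, 3 of the 14 were called higher and 1 lower under the mCherry hairpin, and 2 and 2 under the Atx2 hairpin, TBPH among the lower in both. These counts stand beside 19.2% higher and 18.3% lower of all genes under the mCherry hairpin and 12.1% and 10.4% under the Atx2 hairpin, with list medians of -0.01 against 0.03 and -0.04 against -0.01 on the log2 scale. Without control mCherry replicate 2 or TDP-43 mCherry replicate 2 or 3, the 3 became 1.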
